A study of Mus musculus with 14 samples.

Results

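The genes described here encode 9 secreted proteins of intestinal mucus: Muc2, Fcgbp, Clca1, Zg16, Agr2, Tff3, Spink4, Klk1 and Retnlb. They were chosen by symbol from the 36536 Ensembl genes of each count table, and all 9 were found and passed the filter on low counts in every fit. RNA was sequenced from 14 mouse libraries to ask which genes of adult colon and ileum need ATOH1, the helix-loop-helix factor that specifies secretory cells. In each tissue 3 libraries came from live, 7AAD-negative, GFP-positive cells sorted from crypts of Atoh1 GFP/GFP mice, whose ATOH1::GFP fusion protein is functional (GFP). A further 2 libraries per tissue came from whole crypts of Atoh1 lox/lox;VilCreERT2 mice (KO), and 2 from whole crypts of Atoh1 lox/WT;VilCreERT2 littermates (WT), so the WT crypts also carry the recombinase and 1 floxed allele. KO and WT mice were 6 to 8 weeks old, while the age of the GFP mice and any agent used to induce the recombinase are not stated in the labels. Villin drives the recombinase in intestinal epithelium, so other cells of a crypt preparation keep both alleles. GFP libraries differ from crypt libraries in genotype and in sorting as well as in cell type, and these cannot be told apart.

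Goblet cells store mucus in large granules and release it onto the epithelium. MUC2 is the gel-forming mucin that makes the polymer, and AGR2 is a protein disulfide isomerase of the endoplasmic reticulum that MUC2 needs for its folding. FCGBP, the metalloprotease CLCA1 and the lectin ZG16, which binds Gram-positive bacteria, are abundant proteins of the secreted gel. TFF3 is a trefoil peptide that aids epithelial repair, SPINK4 a Kazal-type protease inhibitor, KLK1 the tissue kallikrein that releases kinins, and RETNLB a resistin-like protein made mainly by goblet cells of the large intestine.

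Basic helix-loop-helix factors bind E-boxes, the hexamer CANNTG, and the promoters of 4 of the 9 genes could be read for it. These are the 250 bases before the gene's start, from RefSeq on GRCm38.p6, another build than the mm9 of the counts. These 4 are shown as the promoters at hand for genes that were lower in KO crypts, with each E-box in capitals. Muc2 lies at chr7:141690090-141690339, Agr2 at chr12:35992675-35992924, Fcgbp at chr7:28070986-28071235 and Klk1 at chr7:44225110-44225359, all on the plus strand.
Muc2: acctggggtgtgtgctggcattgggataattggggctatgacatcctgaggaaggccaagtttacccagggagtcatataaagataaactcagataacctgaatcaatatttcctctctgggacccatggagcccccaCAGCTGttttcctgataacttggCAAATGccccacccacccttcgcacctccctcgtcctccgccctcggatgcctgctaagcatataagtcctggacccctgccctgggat
Agr2: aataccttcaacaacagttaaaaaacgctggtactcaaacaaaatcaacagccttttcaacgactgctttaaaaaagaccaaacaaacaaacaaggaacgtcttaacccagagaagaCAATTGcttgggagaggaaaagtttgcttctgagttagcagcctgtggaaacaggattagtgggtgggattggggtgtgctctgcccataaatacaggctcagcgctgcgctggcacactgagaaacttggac
Fcgbp: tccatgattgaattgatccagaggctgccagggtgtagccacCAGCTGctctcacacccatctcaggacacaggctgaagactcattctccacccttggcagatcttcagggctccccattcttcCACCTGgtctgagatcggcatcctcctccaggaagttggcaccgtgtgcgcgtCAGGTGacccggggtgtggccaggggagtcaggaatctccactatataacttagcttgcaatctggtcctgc
Klk1: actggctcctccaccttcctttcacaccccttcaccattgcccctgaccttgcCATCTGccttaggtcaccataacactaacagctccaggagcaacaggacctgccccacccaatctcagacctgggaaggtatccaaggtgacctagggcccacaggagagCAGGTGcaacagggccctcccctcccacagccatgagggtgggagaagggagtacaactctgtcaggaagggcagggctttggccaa
The Muc2 promoter held 2 E-boxes, CAGCTG and CAAATG, beginning 112 and 89 bases before the start. The Agr2 promoter held 1, CAATTG, beginning 133 bases before it. The Fcgbp promoter held 3, CAGCTG at 208, CACCTG at 125 and CAGGTG at 72 bases, and the Klk1 promoter held 2, CATCTG at 197 and CAGGTG at 87 bases. Among 32851 mouse promoters of this length, 66.2% held a CANNTG on either strand and 13.0% held the form CAGCTG. A match is only a match of letters.

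Library depth ran from 7478418 to 12991891 gene counts in sorted cells and from 8848660 to 10870416 in crypts. Levels are CPM, gene counts relative to the library's gene total after TMM scaling. Mitochondrial ribosomal RNA took 30.02 to 44.88% of gene counts in sorted cells, against 0.14 to 0.22% in crypts. Of uniquely placed reads, HTSeq assigned 24.87 to 52.29% to no feature in sorted cells, against 9.3 to 13.25% in crypts. As its settings are not given, such reads may still lie within genes. These differences run along every contrast of GFP with WT libraries and cannot be told apart from cell type there. The 9 genes took 4.74 to 5.46% of gene counts in colon GFP libraries, 0.26 and 0.282% in colon KO, and 1.41 and 3.13% in colon WT. In ileum they took 3.7, 9.25 and 8.13% in the GFP libraries, 0.0728 and 0.0304% in KO, and 1.42 and 2.02% in WT. The labels fitted the tissues: 6 colon region markers summed to 561 to 7020 CPM in colon libraries and 34.3 to 75.6 CPM in ileum libraries, and 5 ileum region markers to 1170 to 7110 CPM in ileum and 144 to 403 CPM in colon. Atoh1 itself averaged 263 ± 32.1 CPM in colon GFP cells, 5.55 ± 0.495 in colon KO and 53.6 ± 12.6 in colon WT crypts, and 271 ± 67.4, 0.771 ± 0.346 and 40.3 ± 1.0 CPM in the ileum GFP, KO and WT groups (SD, n = 3 for GFP, n = 2 for KO and WT). Its KO level was therefore 10.3% of WT in colon and 1.92% of WT in ileum. Nothing in the labels says that replicates are separate animals; p-values then measure only how far these samples spread, which may be technical.

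All 9 genes were lower in both KO libraries than in both WT libraries of the same tissue. Without overlap in that direction lay 20.1% of all tested genes in colon and 21.8% in ileum. The KO mean was 8.79 to 40.4% of the WT mean in colon and 0.343 to 5.23% in ileum. At an adjusted p under 0.05 in edgeR's quasi-likelihood test, 1 of 9 was called lower in colon, where 0.146% of genes were, and 3 of 9 in ileum, where 1.09% were. The median log2 fold change of the 9 was −2.95 in colon and −4.57 in ileum, against 0.01 for all genes in each. Fewer secretory cells in a crypt and less RNA per cell cannot be told apart in bulk RNA. In sorted cells 5 of 9 genes were called higher than in WT crypts of colon, beside 22.3% of all genes, and 7 of 9 in ileum, beside 24.6%. In ileum 1 gene, Retnlb, was called lower, as were 28.2% of all genes. With a library left out the counts called higher ran from 4 to 6 in colon and from 6 to 7 in ileum. No count of calls in KO crypts held in every fit: the DESeq2 Wald test called 5 of 9 in colon and 9 of 9 in ileum, and edgeR fitted to only the 4 libraries of a tissue called 4 and 0. In colon DESeq2 called Fcgbp, Clca1, Zg16, Agr2 and Tff3, and edgeR fitted to the 4 colon crypt libraries called Zg16, Agr2, Tff3 and Spink4. Muc2, Klk1 and Retnlb were called in colon by neither. The shares of all genes given here are of the main edgeR fit. Counts over all genes in the other fits are given in the last section. Leaving out any of the 4 colon libraries left 0 of 9 called in colon. In ileum 1 of 9 was called without ileum KO 1 or without ileum KO 2, and 7 of 9 without ileum WT 1.

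Markers of other cells moved with these contrasts, counted here where the libraries did not overlap. The shares of all genes without overlap given above are for lower in KO crypts. For higher in KO crypts and for sorted cells no such share is given, so those marker counts are only a description. In KO crypts the 7 enteroendocrine markers were lower without overlap in both tissues (7 of 7), summing to 63.4 to 95.9 CPM in colon KO against 146 to 152 CPM in colon WT, and to 32.9 to 35.9 CPM in ileum KO against 151 to 152 CPM in ileum WT. Of 9 Paneth markers 8 were lower in ileum KO crypts, at 920 to 1950 CPM in KO against 8570 to 29000 CPM in WT, and both deep crypt secretory markers were lower in KO crypts of each tissue. Absorptive markers stood higher for 6 of 11 in colon KO (3980 to 4250 CPM, against 2340 to 3530 CPM in WT; Fabp1 was at 0 in both KO libraries) and for 8 of 11 in ileum KO (11000 to 11900 CPM, against 7030 to 7690 CPM in WT). Dissociation stress genes were higher for 3 of 6 in colon KO crypts and 4 of 6 in ileum KO crypts, with 0 lower. They summed to 353 to 436 CPM in colon KO against 269 to 324 CPM in colon WT. In ileum KO they summed to 192 to 261 CPM against 129 to 177 CPM in WT. All 4 epithelial markers were higher in KO crypts of each tissue. Tuft markers were lower for 2 of 6 in colon KO and 5 of 6 in ileum KO crypts. In sorted cells 5 of 6 dissociation stress genes were higher without overlap in each tissue, and 1 was lower without overlap. All 6 summed to 535 to 742 CPM in colon GFP against 269 to 324 CPM in colon WT. In ileum they summed to 605 to 1380 CPM in GFP against 129 to 177 CPM in WT. Lower in sorted cells were 6 of 11 absorptive, 7 of 8 immune and 7 of 7 stroma markers in colon, and 8, 5 and 6 of them in ileum. In ileum 1 absorptive marker was higher. The summed levels of the absorptive, immune and stroma markers were 410 to 614, 6.72 to 84.1 and 0.957 to 6.72 CPM in colon GFP, against 2340 to 3530, 446 to 478 and 90.2 to 110 CPM in colon WT. In ileum they were 1420 to 2370, 107 to 203 and 1.57 to 2.57 CPM in GFP, against 7030 to 7690, 185 to 662 and 33.2 to 90.3 CPM in WT. Enteroendocrine markers were also lower in sorted cells, 6 of 7 in colon and 7 of 7 in ileum. They summed to 25.9 to 50.3 CPM in colon GFP and 20.1 to 42.9 CPM in ileum GFP, against the WT sums above. Paneth markers were higher for 5 of 9 in ileum GFP cells, at 44800 to 74400 CPM against 8570 to 29000 CPM in ileum WT. In colon GFP cells 4 of 9 Paneth markers were higher and 1 was lower. Both deep crypt secretory markers were higher in colon GFP cells, at 2460 to 3910 CPM against 191 to 552 CPM in colon WT. In ileum GFP cells 1 of these 2 was higher. Epithelial markers were lower in sorted cells for 3 of 4 in colon and 2 of 4 in ileum. The lists were used alike in both tissues, so a count does not show that the named cell was present. The part of such cells, or of stress, in the changes of the 9 genes was not tested.

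**Figure D1:**
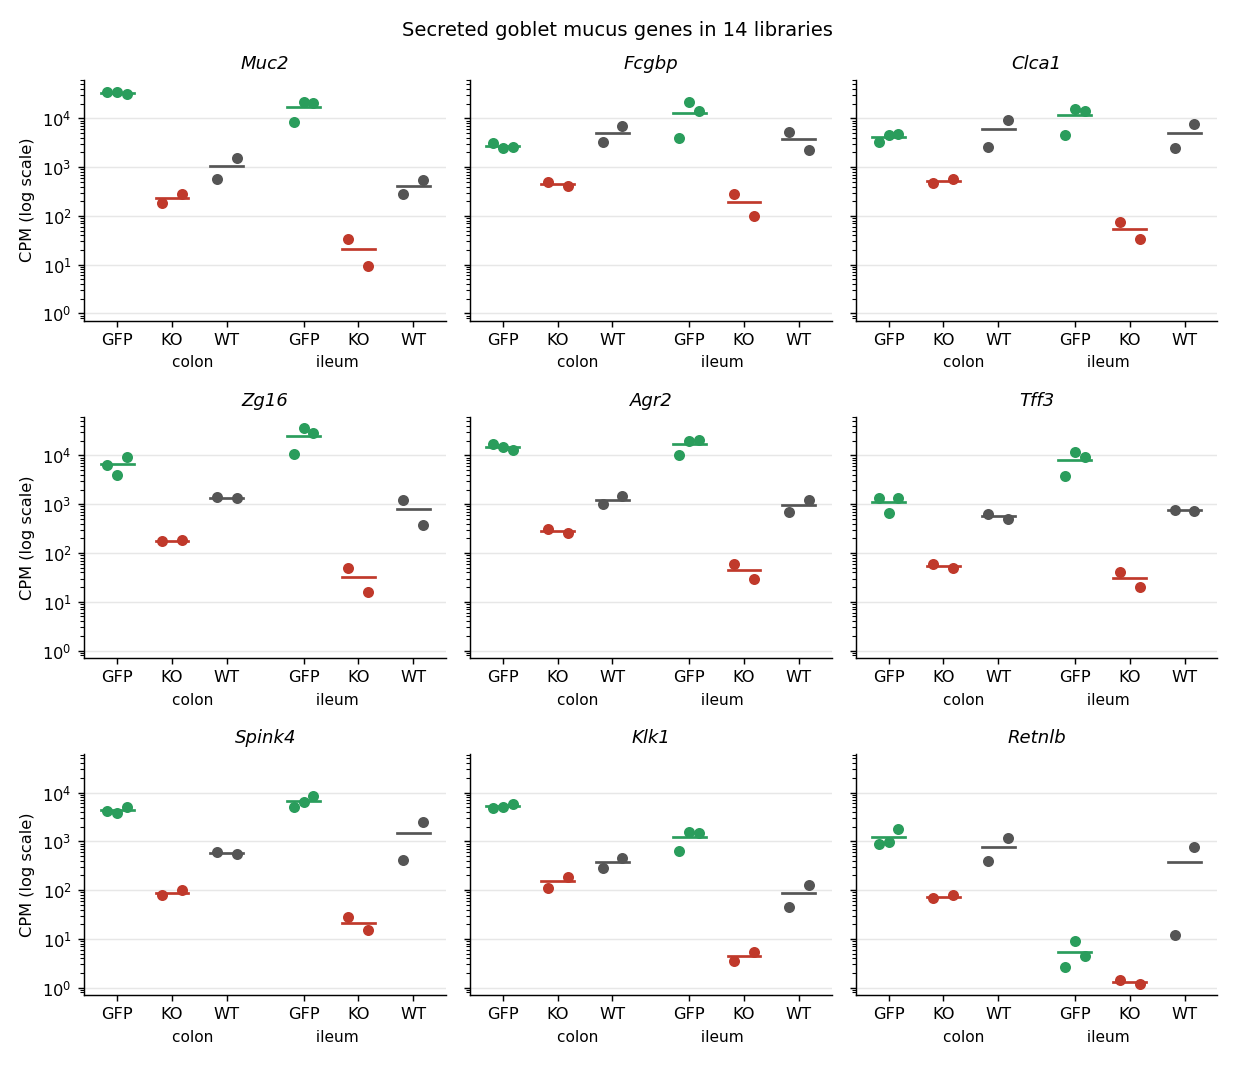
Level of each gene in CPM (log scale) in the 14 libraries, with points for libraries and short lines for group means. In each panel both KO libraries of a tissue lie below both WT libraries of that tissue, and for Muc2 the GFP libraries lie at 8229 CPM or more.

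Muc2 had the largest rise of the 9 genes in sorted cells of both tissues with all libraries in the fit, but in ileum not without ileum WT 1, where Zg16 stood at 6.05 and Muc2 at 4.95 on the log2 scale. Its level was 34353, 33842 and 30803 CPM in colon GFP cells, 188 and 281 CPM in colon KO crypts, and 571 and 1568 CPM in colon WT crypts. In ileum it was 8229, 22015 and 20316 CPM in GFP cells, 32.8 and 9.55 CPM in KO crypts, and 283 and 541 CPM in WT crypts. No neighbouring pair of groups overlapped, and the order from the top was colon GFP, ileum GFP, colon WT, ileum WT, colon KO and ileum KO. Against WT crypts, sorted cells stood 30.9-fold higher in colon (log2 fold change 4.95, SE 0.70, edgeR adjusted p = 0.000106) and 40.9-fold higher in ileum (5.35, SE 0.71, edgeR adjusted p = 5.04e-05). The colon value was 5.84 without colon WT 2. The KO differences did not pass, at a log2 fold change of −2.20 in colon (SE 0.74, edgeR adjusted p = 0.533) and −4.25 in ileum (SE 0.82, edgeR adjusted p = 0.0884).

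Agr2, the isomerase that acts on Muc2 in the endoplasmic reticulum, followed it closely. Colon GFP cells held 16948, 14947 and 12873 CPM, colon KO crypts 316 and 261 CPM, and colon WT crypts 993 and 1470 CPM. Ileum GFP cells held 10351, 19353 and 20673 CPM, ileum KO crypts 59.7 and 29.6 CPM, and ileum WT crypts 699 and 1210 CPM. The sorted cells of the 2 tissues overlapped, as did their WT crypts, and KO crypts lay lowest. Agr2 rose in sorted cells, 12.1-fold in colon (log2 fold change 3.60, SE 0.44, edgeR adjusted p = 2.61e-05) and 17.6-fold in ileum (4.14, SE 0.45, edgeR adjusted p = 7.49e-06). It fell 20.9-fold in KO crypts of ileum (log2 fold change −4.39, SE 0.47, edgeR adjusted p = 0.0151), a call that was lost without ileum KO 1 (−4.98, edgeR adjusted p = 0.0763) or ileum KO 2 (−3.97, edgeR adjusted p = 0.149). In colon KO crypts the difference did not pass (−2.11, SE 0.42, edgeR adjusted p = 0.207). It passed in DESeq2 and with only the 4 colon crypt libraries fitted.

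Of the proteins that are part of the gel, Fcgbp and Clca1 were not called higher in sorted colon cells than in WT crypts. Fcgbp stood at 3121, 2482 and 2582 CPM in colon GFP cells, 488 and 412 CPM in colon KO crypts, and 3273 and 6840 CPM in colon WT crypts. In ileum it stood at 3918, 21143 and 14290 CPM in GFP cells, 285 and 98.2 CPM in KO crypts, and 5283 and 2291 CPM in WT crypts. All 3 colon GFP libraries were thus below both colon WT libraries, with a difference that did not pass (log2 fold change −0.89, SE 0.61, edgeR adjusted p = 0.256). It passed with no filter on low counts (−0.96, edgeR adjusted p = 0.0299) and when only the colon GFP and WT libraries were fitted (−0.89, edgeR adjusted p = 0.0432). In ileum, where GFP 1 lay between the WT libraries, Fcgbp was called 3.46-fold higher in sorted cells (log2 fold change 1.79, SE 0.66, edgeR adjusted p = 0.0382). That call was lost without ileum GFP 2 (1.27, edgeR adjusted p = 0.126), ileum GFP 3 (1.73, edgeR adjusted p = 0.0757) or ileum WT 2 (1.31, edgeR adjusted p = 0.222), and when only the libraries compared were fitted (1.78, edgeR adjusted p = 0.106), and the value was 2.51 without ileum WT 1. In KO crypts Fcgbp differed from WT by −3.50 in colon and −4.27 in ileum on the log2 scale, which did not pass (edgeR adjusted p = 0.211 and 0.0585). Both passed in DESeq2 (adjusted p = 0.000614 and 1.1e-06). Of its 50-base windows, 6.42% occur in other genes, most in 9530053A07Rik. That gene, chosen after its values were seen, had at most 2.28 CPM in any library.

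Clca1 was not called higher in sorted cells of either tissue, and its WT libraries lay far apart. Its level was 3276, 4455 and 4778 CPM in colon GFP cells, 480 and 577 CPM in colon KO crypts, and 2633 and 9399 CPM in colon WT crypts. In ileum it was 4475, 15753 and 14434 CPM in GFP cells, 76.1 and 33.2 CPM in KO crypts, and 2488 and 7643 CPM in WT crypts. GFP and WT libraries overlapped in both tissues, and neither difference passed, at −0.53 in colon and 1.19 in ileum on the log2 scale (edgeR adjusted p = 0.519 and 0.15). With no filter on low counts the ileum difference passed (1.11, edgeR adjusted p = 0.0133). Without colon WT 2 the colon estimate turned to 0.65 (edgeR adjusted p = 0.534). In KO crypts Clca1 fell 90.8-fold in ileum (log2 fold change −6.51, SE 0.99, edgeR adjusted p = 0.0468). The call was lost without ileum KO 1 (−7.22, edgeR adjusted p = 0.223), ileum KO 2 (−6.03, edgeR adjusted p = 0.334) or ileum WT 2 (−5.46, edgeR adjusted p = 0.168), and the value was −7.10 without ileum WT 1. It was lost also with no filter on low counts (edgeR adjusted p = 0.169) and when only the 4 ileum crypt libraries were fitted (0.166). The colon KO difference was −3.52 (SE 0.86, edgeR adjusted p = 0.321), and passed in DESeq2 (adjusted p = 0.00978).

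Zg16, the lectin, rose in sorted cells of both tissues. It stood at 6441, 3952 and 9259 CPM in colon GFP cells, 176 and 181 CPM in colon KO crypts, and 1417 and 1319 CPM in colon WT crypts. In ileum it stood at 10752, 36858 and 28870 CPM in GFP cells, 49.4 and 15.6 CPM in KO crypts, and 1245 and 381 CPM in WT crypts. No neighbouring groups overlapped. The rise was 31.4-fold in ileum (log2 fold change 4.97, SE 0.77, edgeR adjusted p = 0.0002), with 6.05 when ileum WT 1 was left out and 4.35 when ileum WT 2 was. In colon it was 4.79-fold (log2 fold change 2.26, SE 0.66, edgeR adjusted p = 0.0149), and the call was lost without colon WT 1 (edgeR adjusted p = 0.0919) or colon WT 2 (edgeR adjusted p = 0.0984). The KO differences of −2.95 in colon and −4.61 in ileum did not pass (edgeR adjusted p = 0.32 and 0.0612). Both passed in DESeq2, as did the colon difference with only the 4 colon crypt libraries fitted. The ileum KO difference passed without ileum WT 1 (−3.53, edgeR adjusted p = 0.0492).

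Tff3, the trefoil peptide, had the closest WT replicates in ileum and was the only one of the 9 called lower in KO crypts of both tissues. Colon GFP cells held 1367, 664 and 1354 CPM, colon KO crypts 60.4 and 50.2 CPM, and colon WT crypts 624 and 506 CPM. Ileum GFP cells held 3771, 11495 and 9252 CPM, ileum KO crypts 41.4 and 20.3 CPM, and ileum WT crypts 772 and 732 CPM. It fell 10.3-fold in colon KO crypts (log2 fold change −3.36, SE 0.33, edgeR adjusted p = 0.0301) and 23.8-fold in those of ileum (−4.57, SE 0.35, edgeR adjusted p = 0.00484). In colon it no longer passed without colon KO 1 (edgeR adjusted p = 0.365), colon KO 2 (0.389), colon WT 1 (0.113) or colon WT 2 (0.133). The ileum call held without each library in turn, with a value of −5.17 without ileum KO 1, and was lost when only the 4 ileum crypt libraries were fitted (edgeR adjusted p = 0.0852). In sorted cells Tff3 rose 10.9-fold in ileum (log2 fold change 3.44, SE 0.50, edgeR adjusted p = 8.96e-05). The colon difference of 1.00 did not pass (SE 0.45, edgeR adjusted p = 0.0812), but did without colon GFP 2 (1.27, edgeR adjusted p = 0.0413), with no filter on low counts (0.93, edgeR adjusted p = 0.026), with only the libraries compared (edgeR adjusted p = 0.0321) and in DESeq2 (adjusted p = 0.036).

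Spink4, the protease inhibitor, rose in sorted cells and varied most between the ileum WT libraries after Retnlb. It stood at 4151, 3823 and 5028 CPM in colon GFP cells, 78.3 and 100 CPM in colon KO crypts, and 595 and 556 CPM in colon WT crypts. In ileum it stood at 4997, 6281 and 8619 CPM in GFP cells, 27.6 and 15.3 CPM in KO crypts, and 413 and 2490 CPM in WT crypts. The rise was 7.53-fold in colon (log2 fold change 2.91, SE 0.60, edgeR adjusted p = 0.00185) and 4.57-fold in ileum (2.19, SE 0.58, edgeR adjusted p = 0.00675). The ileum value was 1.4 when ileum WT 1 was left out and 4.0 when ileum WT 2 was, and did not pass with only the libraries compared (2.20, edgeR adjusted p = 0.0507). The KO differences of −2.70 in colon and −6.05 in ileum did not pass (edgeR adjusted p = 0.461 and 0.0531). The colon difference passed with only the 4 colon crypt libraries fitted (edgeR adjusted p = 0.000889), and the ileum difference passed in DESeq2. The ileum KO difference passed without ileum WT 1 (−6.83, edgeR adjusted p = 0.000189) and without ileum WT 2 (−4.22, edgeR adjusted p = 0.00491).

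Klk1, the kallikrein, rose by almost equal folds in sorted cells of both tissues from different WT levels. Colon GFP cells held 4873, 5089 and 5801 CPM, colon KO crypts 112 and 190 CPM, and colon WT crypts 285 and 463 CPM. Ileum GFP cells held 628, 1541.5 and 1516 CPM, ileum KO crypts 3.59 and 5.49 CPM, and ileum WT crypts 45.6 and 128 CPM. Colon KO crypts thus overlapped ileum WT crypts. The rise was 14.1-fold in each tissue (log2 fold change 3.81, SE 0.53, edgeR adjusted p = 9.57e-05 in colon; 3.82, SE 0.53, edgeR adjusted p = 7.1e-05 in ileum), and the ileum value was 4.74 without ileum WT 2. Klk1 had the smallest KO difference in colon, −1.32 (SE 0.54, edgeR adjusted p = 0.652). In ileum it was −4.22 (SE 0.65, edgeR adjusted p = 0.0503), which passed without ileum WT 1 (−4.78, edgeR adjusted p = 0.00794). Of the 50-base windows of Klk1, 24.0% occur in 13 other genes, most in Klk1b5, and reads of that length from them could not be assigned to Klk1 alone.

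Retnlb stood at 68.8 CPM or more in every colon library, and reached that level in 1 ileum library only. It stood at 873, 963 and 1822 CPM in colon GFP cells, 68.8 and 78.8 CPM in colon KO crypts, and 390 and 1166 CPM in colon WT crypts. In ileum it stood at 2.72, 9.05 and 4.57 CPM in GFP cells, 1.41 and 1.20 CPM in KO crypts, and 12.0 and 749 CPM in WT crypts. That library was ileum WT 2. Ileum sorted cells were called lower than ileum WT crypts (log2 fold change −6.09, SE 1.37, edgeR adjusted p = 0.00526). This call rested on ileum WT 2, since the value was −1.12 without ileum WT 2 (edgeR adjusted p = 0.203), −7.08 without ileum WT 1 and −6.68 without ileum GFP 2. The colon differences did not pass, at 0.65 for sorted cells and −3.41 for KO crypts against WT crypts (edgeR adjusted p = 0.682 and 0.734). The ileum KO difference of −8.15 did not pass either (SE 2.15, edgeR adjusted p = 0.19), and passed without ileum WT 1 (−9.13, edgeR adjusted p = 0.0117).

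**Figure D2:**
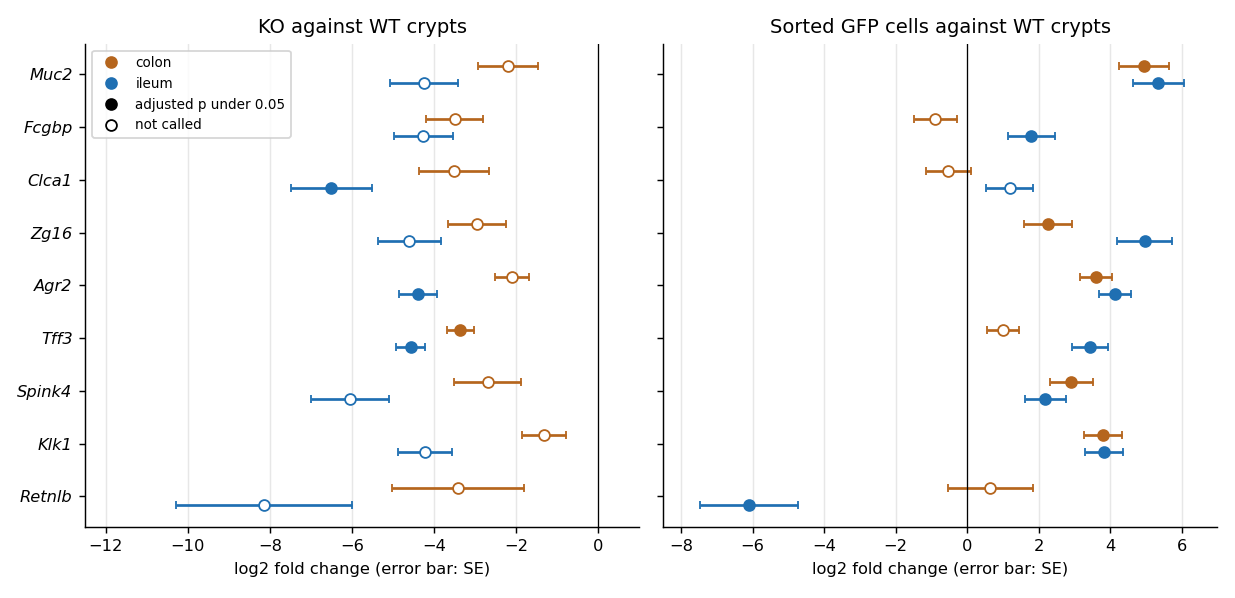
Log2 fold change (x axis) of each gene against WT crypts of the same tissue, for KO crypts (left) and sorted GFP cells (right), with the SE as error bar and filled points for an edgeR adjusted p under 0.05. All KO values lie below 0, while in sorted cells Fcgbp and Clca1 in colon and Retnlb in ileum lie below 0.

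The loss in KO crypts had a larger estimate in ileum than in colon for all 9 genes. As the KO effect in colon minus that in ileum, all 9 estimates were above 0, beside 47.4% of all genes, with a median log2 difference of 2.28 against −0.02 for all genes. By edgeR 0 of 9 passed the interaction test, beside 0.00694% of all genes in either direction, and DESeq2 also called 0. At an unadjusted p under 0.05 stood 5 of 9, beside 3.91% of all genes, namely Spink4 (3.35, SE 1.12), Clca1 (2.98, SE 1.12), Klk1 (2.90, SE 0.82), Agr2 (2.28, SE 0.58) and Tff3 (1.21, SE 0.43). Spink4 was called without ileum WT 1 (4.13, edgeR adjusted p = 0.0084), and Retnlb turned to −0.26 without ileum WT 2. The residual level in KO crypts ran the same way as that of Atoh1 given above, whose own interaction did not pass (log2 difference 2.39, edgeR adjusted p = 0.436). The part of residual Atoh1 in these differences was not tested.

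Between sorted cells of colon and ileum the 9 genes split. Klk1 was 4.28-fold higher in colon (log2 fold change 2.10, SE 0.42, edgeR adjusted p = 0.0031) and Retnlb 219-fold higher (7.77, SE 1.43, edgeR adjusted p = 0.00515), so 2 of 9 were called higher in colon beside 12.6% of all genes. Lower in colon were 3 of 9, beside 10.2% of all genes. Tff3 was 7.24-fold lower (log2 fold change −2.86, SE 0.41, edgeR adjusted p = 0.000284), Fcgbp 4.81-fold (−2.26, SE 0.58, edgeR adjusted p = 0.0155) and Zg16 3.89-fold (−1.96, SE 0.56, edgeR adjusted p = 0.0253). The Fcgbp call was lost without colon GFP 2 (edgeR adjusted p = 0.0554), colon GFP 3 (0.0594) or ileum GFP 2 (0.0554), and the Zg16 call without colon GFP 1 (edgeR adjusted p = 0.0559), colon GFP 2 (0.089), ileum GFP 2 (0.0816) or ileum GFP 3 (0.061). Retnlb was at 8.37 without ileum GFP 2. Muc2, Clca1, Agr2 and Spink4 did not pass, with log2 differences of 0.97 (SE 0.50), −1.47 (SE 0.58), −0.17 (SE 0.33) and −0.61 (SE 0.47); Clca1 passed without ileum GFP 1 (−1.86, edgeR adjusted p = 0.0479), with no filter on low counts (−1.48, edgeR adjusted p = 0.00015) and with only the GFP libraries fitted (−1.45, edgeR adjusted p = 0.0481). Paneth cell markers moved with this contrast: 9 of them summed to 2130, 265 and 232 CPM in colon GFP cells and to 44800, 74400 and 59000 CPM in ileum GFP cells, with none at 0 in either. Of these markers 8 were lower in colon without overlap and 1 was higher. Their part in the differences was not tested.

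In WT crypts only Klk1 was called between the tissues, 4.34-fold higher in colon (log2 fold change 2.12, SE 0.56, edgeR adjusted p = 0.0464), beside 10.2% of all genes called higher. The call was lost without colon WT 1 (2.45, edgeR adjusted p = 0.0985), colon WT 2 (1.72, edgeR adjusted p = 0.206) or ileum WT 1 (1.55, edgeR adjusted p = 0.0819), with no filter on low counts (edgeR adjusted p = 0.163) and with only the WT libraries fitted (0.114), and the value was 3.06 without ileum WT 2. Retnlb did not pass in all libraries (1.04, SE 1.48), and was called higher in colon without ileum WT 2 (6.04, edgeR adjusted p = 0.0268). Spink4 did not pass (−1.33, SE 0.77), was called lower in colon without ileum WT 1 (−2.11, edgeR adjusted p = 0.00397) and stood at 0.50 without ileum WT 2.

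The ratios of Muc2, Agr2 and Klk1 to Fcgbp within 1 library, which no library scaling can change, were higher in sorted cells than in crypts. These 3 genes had larger sorted-cell estimates than Fcgbp in both tissues above, so the choice of genes fixed this direction. The ratio of Tff3 to Muc2 went the other way in colon. It was 0.0398, 0.0196 and 0.044 in colon GFP cells, against 1.09 and 0.322 in colon WT crypts. There were 11, 13.6 and 11.9 Muc2 reads per Fcgbp read in colon GFP cells, 0.384 and 0.682 in colon KO crypts, and 0.175 and 0.229 in colon WT crypts. In ileum the ratio was 2.1, 1.04 and 1.42 in GFP cells, 0.115 and 0.0972 in KO crypts, and 0.0535 and 0.236 in WT crypts. Sorted cells lay above WT crypts in both tissues, and colon KO crypts lay between them. Agr2 over Fcgbp was 5.43, 6.02 and 4.99 in colon GFP cells, 0.647 and 0.635 in colon KO crypts, and 0.304 and 0.215 in colon WT crypts. Klk1 over Fcgbp in ileum was 0.16, 0.0729 and 0.106 in GFP cells, 0.0126 and 0.0559 in KO crypts, and 0.00864 and 0.0559 in WT crypts, where KO and WT overlapped.

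**Figure D3:**
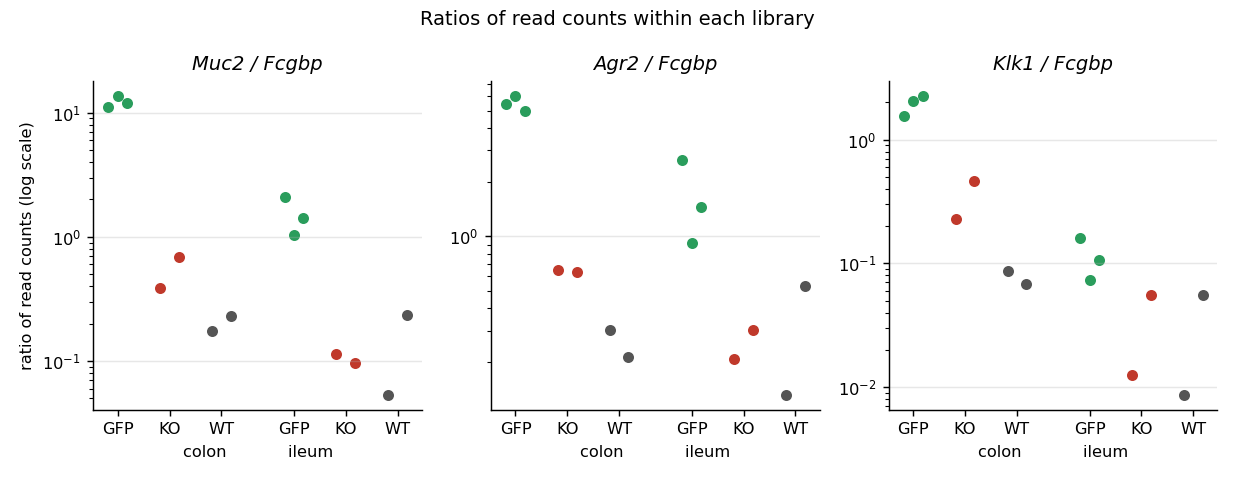
Ratio of Muc2, Agr2 and Klk1 read counts to Fcgbp read counts in each library (log scale). Colon GFP cells lie highest in each panel, at 11 to 13.6 for Muc2.

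Per kilobase of exon, the make-up of the 9 genes' RNA differed by group. Muc2 made up 11.5 ± 1.68% of their summed CPM per kb in colon GFP cells (SD, n = 3), 2.9 ± 0.631% in colon KO crypts (SD, n = 2) and 1.75 ± 0.685% in colon WT crypts (SD, n = 2). In ileum it made up 3.25 ± 0.186% in GFP cells, 1.31 ± 0.442% in KO crypts and 0.711 ± 0.0682% in WT crypts. In WT crypts Muc2 was the lowest of the 9 per kilobase in 3 of 4 libraries, and in ileum WT 1 Retnlb was lower (0.331%, against 0.759% for Muc2). Agr2 had the highest mean share in colon GFP cells at 28.6 ± 5.38%, Zg16 in ileum GFP cells at 27.2 ± 4.77%, Clca1 in colon WT crypts at 18.2 ± 10.1% and Spink4 in ileum WT crypts at 31.1 ± 20.5%. In each of these groups the leading gene changed with the library. Spink4 led in colon GFP 3 (23.7%, against 22.4% for Agr2) and in ileum GFP 1 (27.6%, against 22.5% for Zg16), and Tff3 led in ileum WT 1 (30.0%, against 16.6% for Spink4). In colon WT 1 Tff3 led as well, with Spink4 (19.7%) and Zg16 (17.8%) next and Clca1 below these. Klk1 made up 12.0 ± 1.05% in colon GFP cells and 1.58 ± 0.0603% in ileum GFP cells. Exon lengths are from a later annotation than the one counted, which may differ for a gene.

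**Figure D4:**
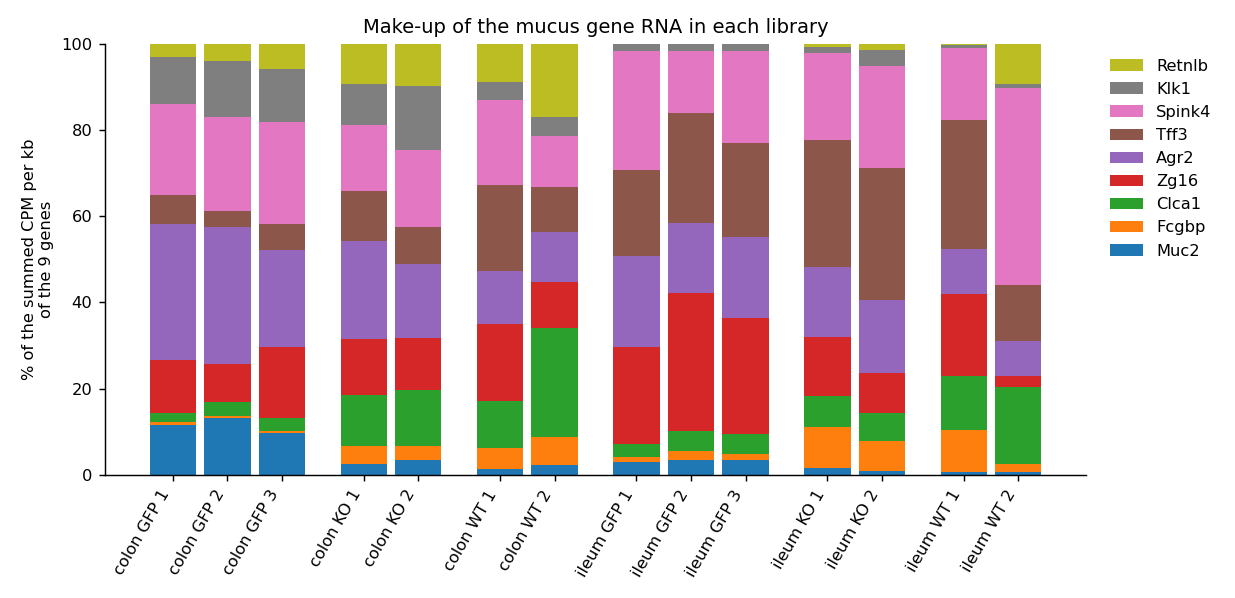
Share of each gene in the summed CPM per kb of the 9 genes (percent, y axis) in each library. Muc2, at the base of the bars, takes 9.72 to 13.1% in colon GFP cells, and the 2 ileum WT libraries differ most in Spink4, at 16.6 and 45.6%.

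The replicate WT crypts differed by gene, not by a common factor. In colon, WT 2 over WT 1 was 3.57 for Clca1, 2.99 for Retnlb, 2.75 for Muc2 and 2.09 for Fcgbp, but 0.931 for Zg16, 0.934 for Spink4 and 0.811 for Tff3. In ileum it was 62.2 for Retnlb, 6.03 for Spink4, 3.07 for Clca1 and 2.81 for Klk1, but 0.434 for Fcgbp and 0.306 for Zg16. Marker lists moved between the same libraries. In ileum WT 2 the 6 tuft cell markers summed to 14.5 times their level in ileum WT 1 (6 of 6 higher), Reg4 and Kit, markers of deep crypt secretory cells, to 47.7 times, the 9 Paneth markers to 3.38 times (7 of 9 higher) and the 8 immune markers to 0.279 times (0 of 8 higher). In colon WT 2 the tuft markers summed to 2.23 times (6 of 6 higher) and the 11 absorptive markers to 0.664 times (0 of 11 higher) their level in colon WT 1. Reg4 and Kit went the other way than in ileum, summing to 0.346 times (1 of 2 higher). The 9 Paneth markers summed to 8.9 times, with only 4 of 9 higher. Each list is named for a cell type and was used alike in both tissues, so a sum does not show that the named cell was present. The part of such cells in the spread was not tested. Among the sorted ileum libraries, GFP 1 held 22.1 to 67.1% of the mean of GFP 2 and GFP 3 for the 9 genes, with Fcgbp lowest and Spink4 highest. Of its uniquely placed reads 52.29% were assigned to no feature, against 27.78 and 31.25% in ileum GFP 2 and GFP 3.

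**Figure D5:**
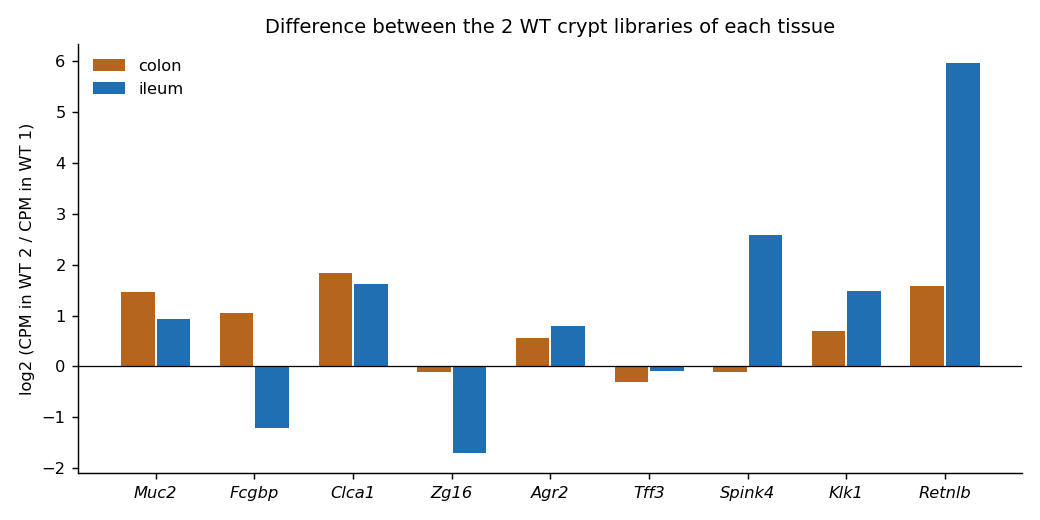
Log2 ratio of the CPM in WT 2 to that in WT 1 for each gene in colon and ileum crypts. Retnlb in ileum reaches 5.96, while Tff3 stays at −0.30 in colon and −0.08 in ileum.

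Other genes of the goblet cell mostly moved in the same directions. Their list, like all lists here, was chosen with earlier results of these data known, so its counts are only a description. Of 23 tested, 7 fell in colon KO crypts (median log2 fold change −2.63), beside 0.146% of all genes, and 16 in ileum KO crypts (−3.76), beside 1.09%. In sorted cells 17 rose in colon (1.59), beside 22.3% of all genes, and 19 in ileum (2.41), beside 24.6%. Hepacam2, a cell adhesion protein, fell to 15.2 ± 1.31 CPM in colon KO crypts, against 133 ± 12.5 CPM in colon WT crypts (SD, n = 2 each; edgeR adjusted p = 0.00686). Rep15, a RAB15 effector, fell to 0.463 ± 0.229 CPM in ileum KO crypts, against 26.1 ± 13.0 CPM in ileum WT crypts (SD, n = 2 each; edgeR adjusted p = 0.00864). Nlrp6, an inflammasome sensor, was lower in colon GFP cells (61.9 ± 28.2 CPM, SD, n = 3) than in colon WT crypts (286 ± 38.4 CPM, SD, n = 2; edgeR adjusted p = 0.00172). The colon KO count was 0 without colon KO 1 or colon KO 2, 3 without colon WT 1 and 1 without colon WT 2. The ileum KO count was 5 without ileum KO 1 or ileum KO 2, 18 without ileum WT 1 and 12 without ileum WT 2. DESeq2 called 17 and 20 lower in colon and ileum KO crypts, and edgeR fitted to only the crypts of 1 tissue called 13 and 1. The shares of all genes above are of the main edgeR fit only.

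Of 23 enzymes of mucin O-glycosylation, 0 were called by edgeR in colon KO crypts and 3 fell in ileum KO crypts (medians −0.53 and −0.34), beside 0.146 and 1.09% of all genes. At an unadjusted edgeR p under 0.05 stood 12 in colon and 11 in ileum. DESeq2 called 8 lower in colon, and 7 lower and 1 higher in ileum. Shares of all genes at these 2 thresholds are not given, so the counts are only a description. In colon GFP cells 12 rose and 2 fell (median 0.75), beside 22.3% of all genes called higher and 23.6% called lower. In ileum GFP cells 13 rose (0.93), beside 24.6% of all genes, and 6 fell, a share near the 28.2% of all genes called lower. Galnt5, which starts O-glycan chains, fell to 3.38 ± 0.417 CPM in ileum KO crypts, against 40.9 ± 18.8 CPM in ileum WT crypts (SD, n = 2 each; edgeR adjusted p = 0.0142). B3gnt6, the core 3 synthase, stood at 130 ± 11.1 CPM in colon GFP cells and 2.09 ± 0.931 CPM in ileum GFP cells (SD, n = 3 each; edgeR adjusted p = 3.1e-07). Of 20 genes of mucin folding and export, 3 fell in colon KO crypts and 5 in ileum KO crypts (medians −0.68 and −0.51), beside the same 0.146 and 1.09% of all genes. At an unadjusted edgeR p under 0.05 stood 19 of the 20 in colon and 12 in ileum, and DESeq2 called 8 lower in each. In each sorted group 12 of the 20 rose (medians 0.84 in colon and 1.11 in ileum), beside 22.3 and 24.6% of all genes. Qsox1, a disulfide-forming oxidase, fell 3.67-fold in colon KO crypts (edgeR adjusted p = 0.0258). Kdelr3, which returns proteins to the endoplasmic reticulum, fell 10.6-fold in ileum KO crypts (edgeR adjusted p = 0.0144) and rose 4.48-fold in colon GFP cells and 4.96-fold in ileum GFP cells. Without ileum KO 1 or ileum KO 2 edgeR called 0 of either list lower in ileum KO crypts, and without ileum WT 1 it called 7 glycosylation and 10 folding genes lower. The colon KO count of folding genes was 0 without colon KO 1, colon KO 2 or colon WT 2. Without colon WT 1, 5 glycosylation and 7 folding genes were called higher in colon GFP cells, and without ileum GFP 1, 18 folding genes in ileum GFP cells.

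Of 29 close relatives of the 9 genes, 17 reached a mean of 1 CPM in some group. In sorted cells of each tissue 5 of the 14 tested were called higher and 2 lower (medians 0.39 in colon and 1.66 in ileum), beside 22.3% higher and 23.6% lower of all genes in colon and 24.6 and 28.2% in ileum. Of the 8 tested in crypts 0 were called by edgeR in KO crypts of either tissue, with 1 in colon and 2 in ileum at an unadjusted p under 0.05. DESeq2 called 0 in colon and 1 in ileum, and edgeR called 4 in ileum without ileum WT 1, 3 of them higher. Of all genes 0.146% were called lower in colon KO crypts and 1.09% in ileum KO crypts. Clca3b stood at 823 ± 68.2 CPM in colon GFP cells (SD, n = 3), 1040 ± 148 CPM in colon KO crypts and 820 ± 21.2 CPM in colon WT crypts (SD, n = 2), where no difference passed. In ileum it stood at 1430 ± 706 CPM in GFP cells (SD, n = 3), 1030 ± 27.2 CPM in KO and 588 ± 340 CPM in WT crypts (SD, n = 2). There the GFP difference from WT passed and the KO difference did not (0.84, edgeR adjusted p = 0.381). Clca4b was lower in sorted cells, at 3.81 ± 2.45 CPM in colon GFP cells against 418 ± 139 CPM in colon WT crypts (edgeR adjusted p = 2.34e-06). Tff2, a trefoil peptide mainly of the stomach, had 113 counts over the 3 colon GFP libraries and 0 over the 2 colon WT libraries, at least 41.1-fold higher with the WT group set at 3 counts in all. Muc5b, a gel-forming mucin of the airways, had 43 counts in colon GFP cells and 0 in colon WT crypts, at least 16.1-fold higher.

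The genes whose profile over the 14 libraries was most like the mean profile of the 9 were Rep15, Hepacam2, Spdef, Creb3l4, Ccl6, Slc2a10, Galnt5 and Ptprn2, with Pearson's r of log2(CPM + 1) from 0.994 to 0.987 among 10057 genes. These libraries share their 6 groups and their depth, so r is a description. Per gene the nearest were Smim14 for Muc2 (0.994), Kdelr3 for Agr2 (0.992), Creb3l1 for Klk1 (0.987), Capn9 for Clca1 (0.985), Fam222a for Spink4 (0.985), Rasd2 for Zg16 (0.979), Rgs2 for Tff3 (0.972), Zfp36l1 for Fcgbp (0.954) and Rnf11 for Retnlb (0.948). Among the 9, the closest pair was Muc2 with Agr2 (0.99) and the least alike was Tff3 with Retnlb (0.10).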

How the data were processed

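Total RNA of 14 libraries was sequenced. The authors deposited unnormalized counts per Ensembl gene, a table for each library. They used TopHat 1.4.1 and HTSeq with build mm9, per the submitters' processing notes. For HTSeq's version, annotation and strand setting, nothing is given in the sources used here. Genes were named by Ensembl ID from GENCODE M21 (31004 of 36536), used also for exon lengths. The 5 special lines of each table were left out of library sizes. Depth is given with the results, and no replicate pair agreed within sampling noise (mean chi-square of a gene 11.17 to 92.92).

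Genes were tested with edgeR 4.0.16 in R 4.3.3 (TMM, filterByExpr by group, robust quasi-likelihood F-test) with Benjamini-Hochberg adjustment over all genes, called at 0.05. Comparisons among crypts used a fit of the 8 crypt libraries (14415 genes), and those with GFP a fit of all 14 (15274 genes). A library left out of a pair leaves 1, which is assumed to vary like the other groups. Scripts were tested on simulated counts. The 9 genes and all lists were chosen with earlier results of these data known. Named are all 9 genes, and per list a part of the 3 called genes with the largest change, 1 uncalled gene with the highest level, relatives at 1 CPM or more, and 8 genes of like profile at 10 CPM or more. Alternatives were DESeq2 size factors, no low-count filter, DESeq2 1.42.0, a replicate block, only the libraries compared, mitochondrial genes left out, and each library left out in turn.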

Additional observations from a re-analysis of the deposited data

How the results depend on the processing

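Of the single-gene values of the 9 genes under the alternatives, 580 kept direction and side of the threshold, 35 lost a call, 34 gained one and 8 reversed, and the causes were not tested. Reversed were Retnlb in the difference of KO effects (−0.26 without ileum WT 2, up to 5.75 without colon WT 2), Clca1 in colon GFP against WT (0.65 without colon WT 2, down to −1.19 without colon WT 1), Agr2 in colon against ileum GFP (0.01 without ileum GFP 3, down to −0.42 without ileum GFP 1), and in colon against ileum WT Fcgbp (−0.20 without colon WT 2, −0.04 without ileum WT 2, up to 1.15 without ileum WT 1), Clca1 (−0.94 without colon WT 2, −0.34 without ileum WT 1, up to 1.3 without ileum WT 2) and Spink4 (0.50 without ileum WT 2, down to −2.11 without ileum WT 1). For colon KO against WT 22 genes were called, 56 with no low-count filter, 102 with only the libraries compared, 157 with DESeq2 and 0 to 14 with a library left out (795 and 623 at an unadjusted p under 0.05 where edgeR called 0); of the 9 genes 1, 4 with only the libraries compared, 5 with DESeq2 and 0 with a library left out (0 to 0; 5 at an unadjusted p under 0.05 without colon KO 1 or KO 2). For ileum KO 176 genes were called, 4 with only the libraries compared, 508 with DESeq2 and 11 to 1403 with a library left out; of the 9 genes 3, 0, 9 and 1 to 7. The difference of KO effects had 1 gene, 9 with no filter, 56 with DESeq2 and 0 to 335 with a library left out, and 0 to 1 of the 9. Colon GFP against WT had 7005, and 4185 to 6993 with a library left out. Colon against ileum GFP had 3471, 2147 with only the libraries compared, and 3 to 6 of the 9 with a library left out. Colon against ileum WT had 2872, 1213 with only the libraries compared and 1289 to 3544 with a library left out; of the 9 genes 1, 0 with no filter, 0 with only the libraries compared and 0 to 2 with a library left out. The labels do not say what replicate numbers mark. Deviations of same-numbered libraries correlated at −0.01 and 0.05 between KO and WT, and at 0.32 and 0.36 between colon and ileum for WT and KO, whose deposited names also share a number; the numbers were not taken as pairs, and with the number as a replicate block 30 genes were called for colon KO, 201 for ileum KO, 1 for the difference, 6823 and 8012 for colon and ileum GFP, 3689 between GFP and 2752 between WT groups, and 1, 4, 0, 5, 7, 5 and 1 of the 9 genes. The block added Zg16 and Klk1 to the ileum KO calls (adjusted p = 0.0422 and 0.00286) and dropped Clca1 (0.0783), and dropped Fcgbp from the ileum GFP calls (0.0861; edgeR throughout). What read depth limits was not tested.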
